A study of Rattus norvegicus with 4 samples.

Results

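Rpl5 and Rps9 encode proteins of the cytosolic ribosome, and their transcripts were read here in right atrial tissue from SHHF rats, obese against lean. They are 2 of the 10 genes named on the arrays and were taken as every probe that the platform annotation pairs with either symbol, which gave 16 wells for Rpl5 and 16 for Rps9, 32 of 28800 probes in all. Of the remaining probes, 28640 carried no gene name. The 4 arrays were 2-colour oligonucleotide slides, each set up with the total RNA of 1 obese and 1 lean male rat of 10 months, reverse transcribed with Cy5 or Cy3. SHHF is a strain of hypertensive rats prone to heart failure, in which the recessive corpulent allele (cp) of the leptin receptor gene makes its homozygous carriers obese. Per the labels, the obese rats also had a metabolic syndrome and dilated cardiomyopathy from 10 months on, whereas in the hypertensive lean rats, of genotype +/+ or cp/+, it began at 14 months. The lean genotype of each single rat is not given. The arrays paired obese rat 5 with lean rat 3, obese rat 3 with lean rat 4, obese rat 4 with lean rat 4, and obese rat 1 with lean rat 5. Lean rat 4 was thus used on 2 arrays. The titles name 3 lean rats while the design text counts 4, and the RNA extraction protocol speaks of the left ventricle where every other label says right atrium. Obese RNA carried Cy5 for rats 5 and 4, and Cy3 for rats 3 and 1.

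Ribosomes are built from a large and a small subunit, each made of ribosomal RNA and many different proteins that are produced in matched amounts. Rpl5 (large subunit protein L5) binds the smallest RNA of the large subunit and carries it into the forming ribosome. Outside the ribosome the same complex, studied mainly in human and mouse cells, can bind the ubiquitin ligase Mdm2 and so stabilise p53. Rps9 (small subunit protein S9) sits in the body of the small subunit near the channel through which messenger RNA enters. Ribosomal protein messenger RNAs start with a run of pyrimidines, the terminal oligopyrimidine tract, through which mTOR signalling controls their translation, and growth of the heart muscle goes along with more ribosomes.

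The region around the annotated transcription start of each gene is shown because the pyrimidine run is the feature that ribosomal protein genes have in common. The stretches are 60 bases long, from 50 bases before the start to 10 bases into the transcript, taken from RefSeq on build GRCr8, and both genes lie on the minus strand. Capitals mark the longest unbroken run of C and T within 20 bases of the start on either side, read on the transcribed gene's own strand only. The stretches shown end 10 bases into the transcript, so they do not show the whole of that window.
Rpl5, chr14:1995216-1995275: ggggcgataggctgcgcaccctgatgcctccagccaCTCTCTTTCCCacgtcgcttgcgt
Rps9, chr1:74430428-74430487: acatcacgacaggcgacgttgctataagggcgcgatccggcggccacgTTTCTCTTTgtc
The run of Rpl5 was 11 bases long and ended 4 bases before the annotated start, so as annotated it is not part of the transcript. That of Rps9 was 9 bases long and spanned the start. Of 33469 rat promoters in the same table, 4.71% held a run as long as that of Rpl5 in this window and 10.3% one as long as that of Rps9. The oligonucleotides spotted for the genes are not used here, so whether they also bind close copies was not examined. The GRCr8 gene table lists 11 pseudogenes named after Rpl5 and 16 named after Rps9, and 1 further gene named as a relative of each (Rpl5l1 and Rps9l1), so the signals of both may be shared with copies.

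Each deposited value is a log10 ratio of the 2 channels, here multiplied to log2. Between 28730 and 28798 probes had a value on an array, and these log2 ratios had an SD of 0.42 to 0.58. Intensities are not used here, so the signal of the wells over background is unknown, and precision rests on the 4 arrays. Which channel is the numerator is not stated, so each result is given under both readings. The alternating contrast is the mean over arrays after the values for obese rats 3 and 1, labelled with Cy3, were multiplied by -1. Should the deposited numerator be Cy5, this is an obese-to-lean ratio, and should it be the obese channel, this is an effect of the dyes. The common contrast is the mean with every sign as deposited, and there the roles are exchanged. If the columns hold the inverse of either ratio, the sign of that contrast is turned. On bulk tissue a lower ratio from fewer cells of a type and from less RNA per cell cannot be told apart. Of 18 markers of atrial and ventricular muscle cells, fat cells, blood cells and fibroblasts, 0 were named on the arrays, so neither the tissue nor its cell makeup could be checked. Of 78 symbols of cytosolic ribosomal proteins in the gene table, these 2 were the ones measured under a name.

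All 32 wells lay on plate 73, in rows C, D, G, H, K, L, O and P. Rpl5 filled columns 9 and 10 of these rows and Rps9 columns 11 and 12. Because probes of columns 10 to 12 had shifted ratios in general, each well was set against the median of the 1165 to 1192 unnamed probes of its own column on the same array. For column 9 these medians were close to 0, at 0.066, 0.038, 0.042 and -0.081 with obese rats 5, 3, 4 and 1. For column 12 they were far from it, at 0.64, -0.56, 0.50 and -0.11 in the same order, so the offset carried the sign of the dye orientation. Differences from these medians are called column-relative log2 ratios below.

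**Figure D1:**
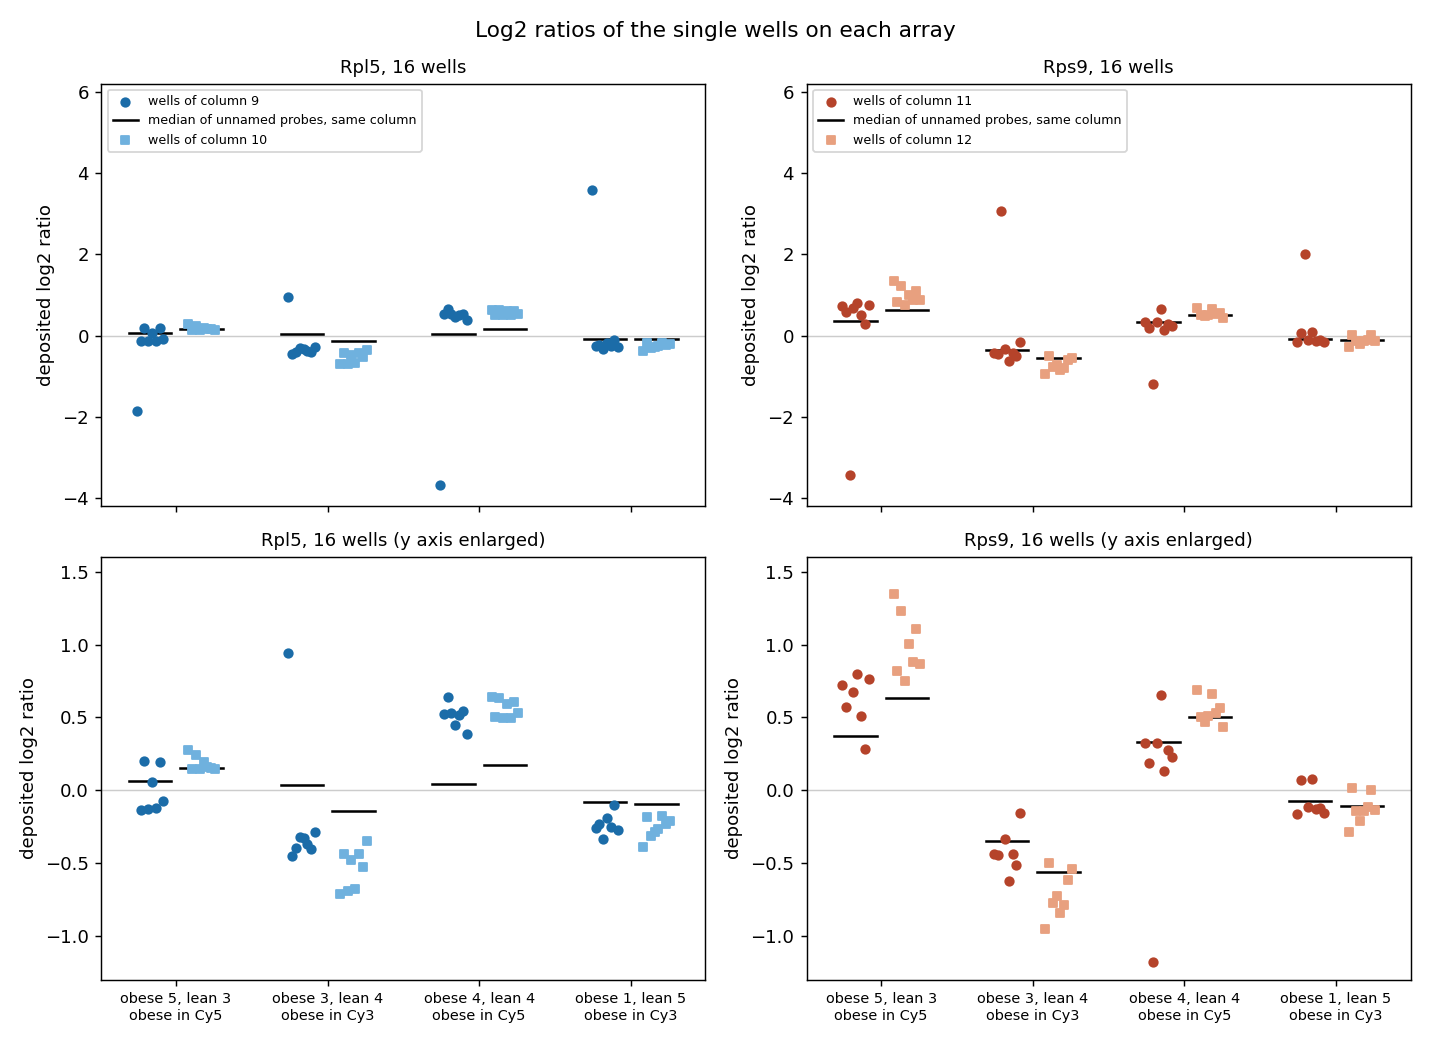
Deposited log2 ratio (y axis) of each Rpl5 well (left) and Rps9 well (right) on the 4 arrays (x axis), with black bars at the median of the unnamed probes of the same well column. The upper panels show the full range and the lower panels an enlarged range in which wells outside it are not drawn. On every array 1 well of each gene stands apart from the other 15 in the upper panels. In the lower panels the Rpl5 wells lie away from their column medians with obese rats 3 and 4, and the Rps9 wells follow theirs except with obese rat 5, where most lie above.

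For each gene 1 of the 16 wells stood far from the rest. Well 73C09 of Rpl5 had deposited log2 ratios of -1.85, 0.94, -3.67 and 3.59 with obese rats 5, 3, 4 and 1. The other 15 wells of the gene stayed between -0.71 and 0.64 over all arrays. Well 73G11 of Rps9 had -3.43, 3.06, -1.18 and 2.0 in the same order, against -0.95 to 1.35 for its other wells. In both wells every one of these values was a ratio of small whole numbers to the commonest value of its array, such as 1 to 3 or 6 to 1. Why they take this form was not tested. Among all 128 values of the 32 wells, 10 had this form (whole numbers up to 30, relative tolerance 1e-05), which is 7.81%, beside 8.52% of the values of all probes. The remaining 2 of these were in wells 73L12 and 73P12 of Rps9, each on the array of obese rat 1, at -0.12 and -0.14, inside the range of the other Rps9 wells there. A value is called repeated here where 5 or more probes of the array hold it, and 13.4% to 16.7% of the values of an array were. Wells 73C09, 73G11, 73L12 and 73P12 held repeated values, which leaves 15 wells of Rpl5 and 13 of Rps9 without any.

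With repeated values left out, the Rpl5 wells of an array lay close together and the arrays lay apart. Over the 15 wells without repeated values, set against unnamed probes without repeated values, the column-relative mean was -0.059 ± 0.11 with obese rat 5. For obese rats 3, 4 and 1 the means were -0.40 ± 0.10, 0.42 ± 0.084 and -0.15 ± 0.070 (SD over 15 wells in each case). The SD of the 4 array means was 0.34 as deposited in sign and 0.23 after turning. Over all 16 wells the order was the other way, with an SD between wells of 0.34 to 1.04 on an array and an SD of the 4 array means of 0.22 as deposited in sign and 0.21 after turning. All 15 wells were below their column with obese rat 3 and again with obese rat 1. All 15 were above it with obese rat 4, and with obese rat 5 there were 4 above and 11 below. The arrays of obese rats 3 and 4, with opposite signs and nearly equal size, are those that share lean rat 4, which was in Cy5 beside obese rat 3 and in Cy3 beside obese rat 4. Whether the shared rat has to do with these values was not tested. All 16 wells were also placed among all unnamed probes of their columns, repeated values included. The median Rpl5 well was at the 7.42 percentile on the array of obese rat 3 and at the 94.3 percentile on that of obese rat 4. It was at the 49.0 and 23.7 percentiles on those of obese rats 5 and 1.

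Rps9 lay closer to the bulk of its columns. Over its 13 wells without repeated values the column-relative mean was 0.28 ± 0.21 with obese rat 5. With obese rats 3, 4 and 1 it was -0.10 ± 0.15, -0.018 ± 0.14 and 0.0028 ± 0.11 (SD over 13 wells). The array of obese rat 5 was thus the highest, with 12 of 13 wells above their column, and on the other arrays the mean was smaller than the spread between wells. The median well of the 16 was at the 80.5, 36.4, 48.7 and 45.3 percentiles of the unnamed probes with obese rats 5, 3, 4 and 1. As deposited, without the column medians, the same 13 wells averaged 0.81, -0.56, 0.42 and -0.099, so most of the deposited Rps9 ratio was shared with unnamed probes of columns 11 and 12 on each array.

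**Figure D2:**
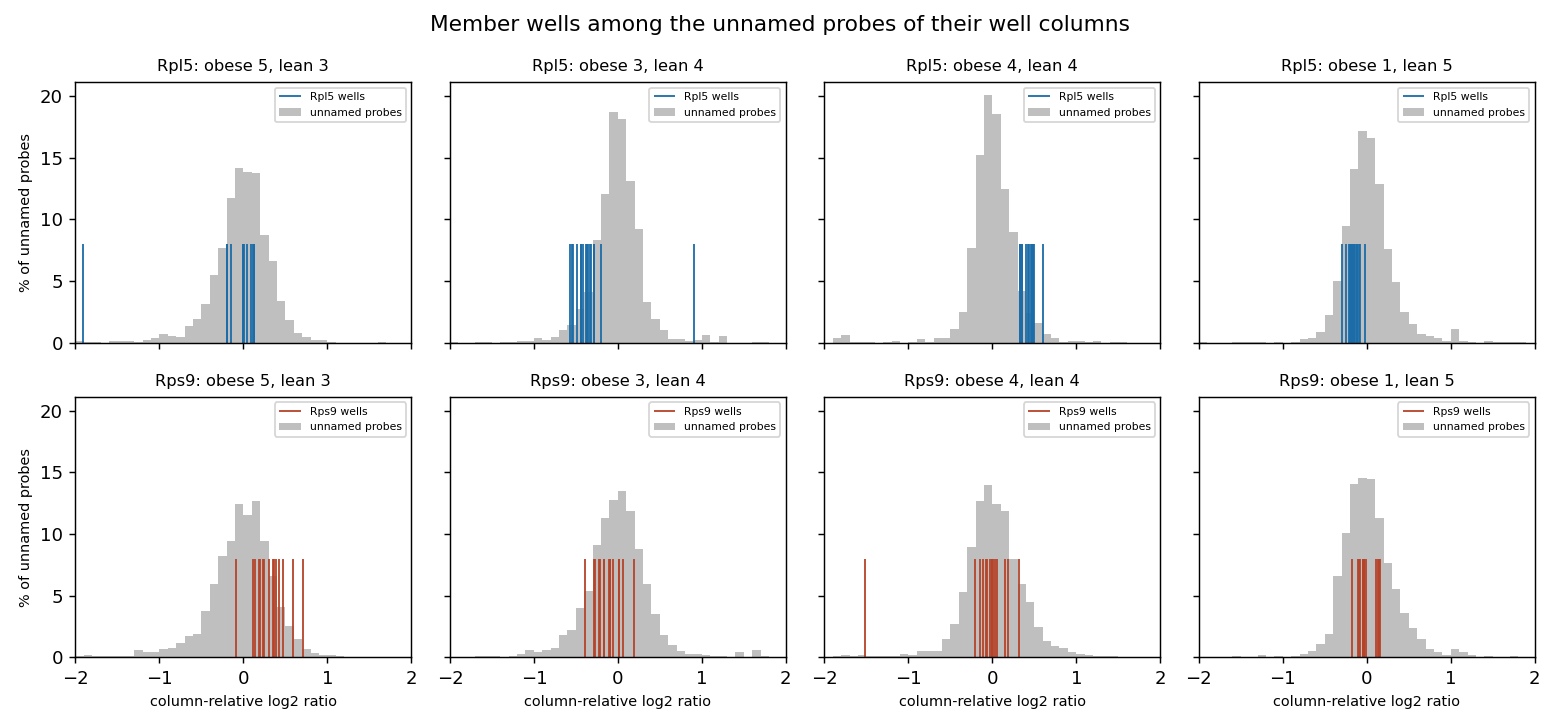
Column-relative log2 ratios (x axis) of the unnamed probes in the columns of Rpl5 (9 and 10, upper panels) and Rps9 (11 and 12, lower panels) as grey histograms (y axis, percent of probes in bins of 0.1), with a coloured line of fixed height for each well. Wells beyond 2 on either side are not drawn. Most Rpl5 wells lie in the lower flank with obese rat 3 and in the upper flank with obese rat 4, while the Rps9 wells lie near the centre except with obese rat 5.

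Wells were also compared by row, with rows C, G, K and O against rows D, H, L and P in each column and without repeated values. The widest gap of each gene between these row classes was on the array of obese rat 5. In column 9, as deposited, the Rpl5 wells of rows D, H, L and P averaged -0.12 ± 0.027 there, and those of rows G, K and O 0.15 ± 0.080. In column 10 the corresponding means were 0.15 ± 0.0046 for rows D, H, L and P and 0.22 ± 0.052 for rows C, G, K and O. These SDs are over 4 wells, or 3 for rows G, K and O of column 9. Rps9 had 0.79 ± 0.051 in rows D and H (SD over 2 wells) and 1.17 ± 0.15 in rows C, G, K and O (SD over 4 wells) of column 12. Within a column the row classes differed by 0.019 to 0.27 for Rpl5 and by 0.013 to 0.39 for Rps9 over the 4 arrays. The SD within a class was 0.0046 to 0.097 for Rpl5 and 0.0054 to 0.28 for Rps9. Over 2 columns and 4 arrays, the gap was larger than the higher of the SDs of both classes in 6 of 8 cases for Rpl5 and in 3 of 8 for Rps9. The same gap among unnamed probes is not given here, so whether it is particular to these wells was not tested.

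**Figure D3:**
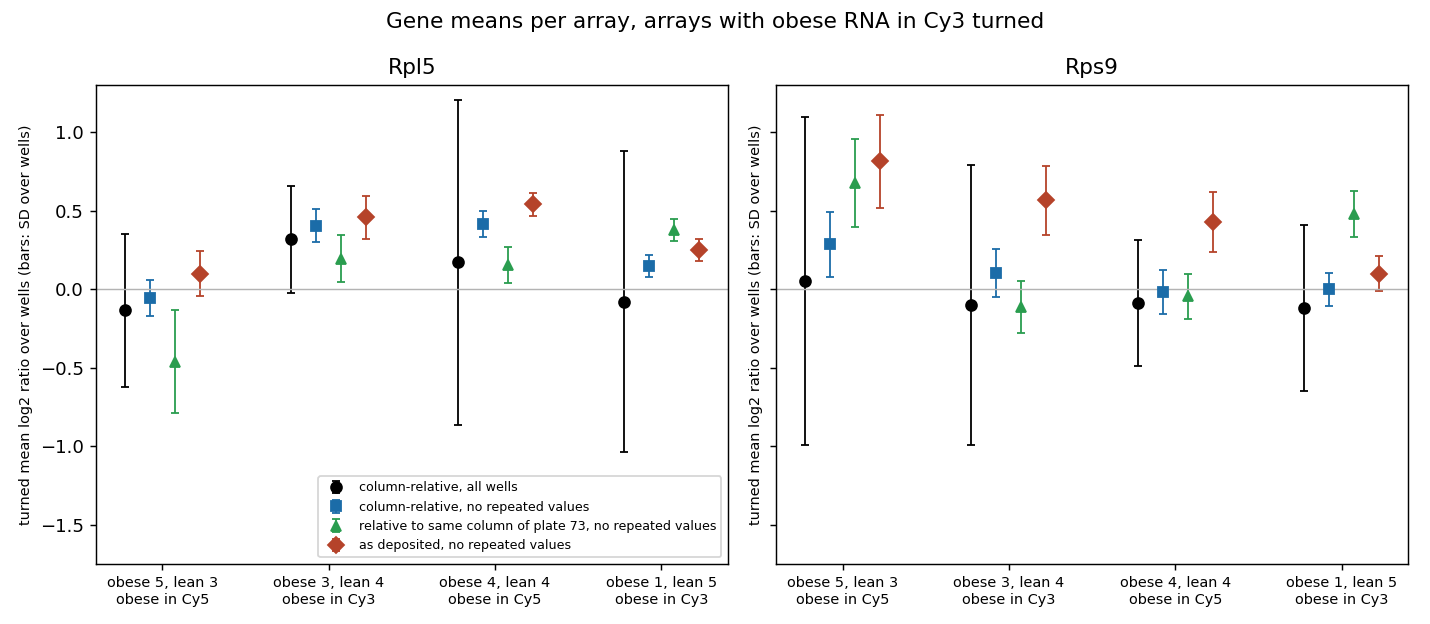
Mean log2 ratio over the wells of Rpl5 (left) and Rps9 (right) on each array (x axis), with the arrays of obese RNA in Cy3 turned, for 4 ways of reading the wells. Bars are the SD over wells. With repeated values left out the bars shrink, Rpl5 is at 0.40 and 0.42 on the arrays that share lean rat 4, and the values relative to plate 73 alone (triangles) run in another order.

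The first question was whether either gene differed between obese and lean atrium beyond the spread between arrays. Over all 16 wells, neither passed the test in either contrast. In the alternating contrast the column-relative mean of Rpl5 was 0.068 (SE 0.095, n = 4 arrays, limma adjusted p = 0.705), and that of Rps9 was -0.064 (SE 0.062, limma adjusted p = 0.570). The test was limma on the mean of the 4 array values against 0, with gene means in place of their probes and adjustment over 28553 rows. Rpl5 was above 0 on 2 of 4 arrays after turning, and Rps9 on 1 of 4. Without the array of obese rat 3 the sign of the Rpl5 mean changed, to -0.015. If this contrast is obese over lean, the 95% interval of Rpl5 runs from 0.89-fold to 1.24-fold, and that of Rps9 from 0.86-fold to 1.06-fold. If instead the common contrast is obese over lean, the intervals are 0.80-fold to 1.16-fold for Rpl5 and 0.91-fold to 1.18-fold for Rps9. In the common contrast Rpl5 was at -0.050 (SE 0.11, 95% interval -0.32 to 0.22, limma adjusted p = 1.00). Rps9 was at 0.047 there (SE 0.075, 95% interval -0.14 to 0.24, limma adjusted p = 1.00).

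These means over 16 wells rest in part on wells 73C09 and 73G11, whose turned means were -2.55 and -2.70. Every other Rpl5 well had a positive turned mean, from 0.17 to 0.36 (highest in well 73C10), and Rps9 wells other than 73G11 lay between -0.0011 and 0.37 (highest in well 73C12). Without repeated values, Rpl5 was at 0.23 in the alternating contrast (SE 0.096, 95% interval 0.0023 to 0.45, limma adjusted p = 0.192), a fold of 1.17. The interval is not adjusted for the number of rows tested. Its turned values were -0.059, 0.40, 0.42 and 0.15 with obese rats 5, 3, 4 and 1, positive on 3 of 4. Rps9 was at 0.092 (SE 0.077, 95% interval -0.088 to 0.27, limma adjusted p = 0.474), positive on 2 of 4 arrays. The median over wells, which keeps all 16 but is moved little by a single well, gave 0.24 for Rpl5 (SE 0.092, limma adjusted p = 0.227) and 0.099 for Rps9 (SE 0.071, limma adjusted p = 0.448). With lean rat 4 counted once, Rpl5 without repeated values was at 0.17 (SE 0.11, n = 3, limma adjusted p = 0.388). In the common contrast without repeated values Rpl5 was at -0.048 (SE 0.14) and Rps9 at 0.041 (SE 0.096), each with limma adjusted p = 1.00.

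An exact two-sided sign-flip test over the 4 arrays, which cannot give a p below 0.125, gave p = 0.625 for Rpl5 and 0.250 for Rps9 in the alternating contrast over 16 wells. Without repeated values the exact p was 0.250 for Rpl5 and 0.5 for Rps9. For the common contrast it was 0.750 and 0.375 over 16 wells, and 0.750 and 0.875 without repeated values.

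Single wells were tested next, within the whole table. In the alternating contrast 0 of the 32 wells passed (limma, adjusted over 28702 probes), where 0.0871% of all probes did. Of the Rpl5 wells 15 of 16 were positive and of the Rps9 wells 14 of 16, against 49.5% of all probes. At an unadjusted p under 0.05 there were 8 Rpl5 wells and 3 Rps9 wells of 16 each, against 21.1% of all probes. Among these were wells 73C09 and 73G11, at -2.55 and -2.70. Each had the lowest p of its gene (limma) and was opposite in sign to the others counted. The 16 wells of a gene read the same RNA on the same slides, so these counts describe spots and do not add replicates. In the common contrast 0 of 32 wells passed, nor had any an unadjusted p under 0.05 (limma), with 0% and 1.49% of all probes.

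**Figure D4:**
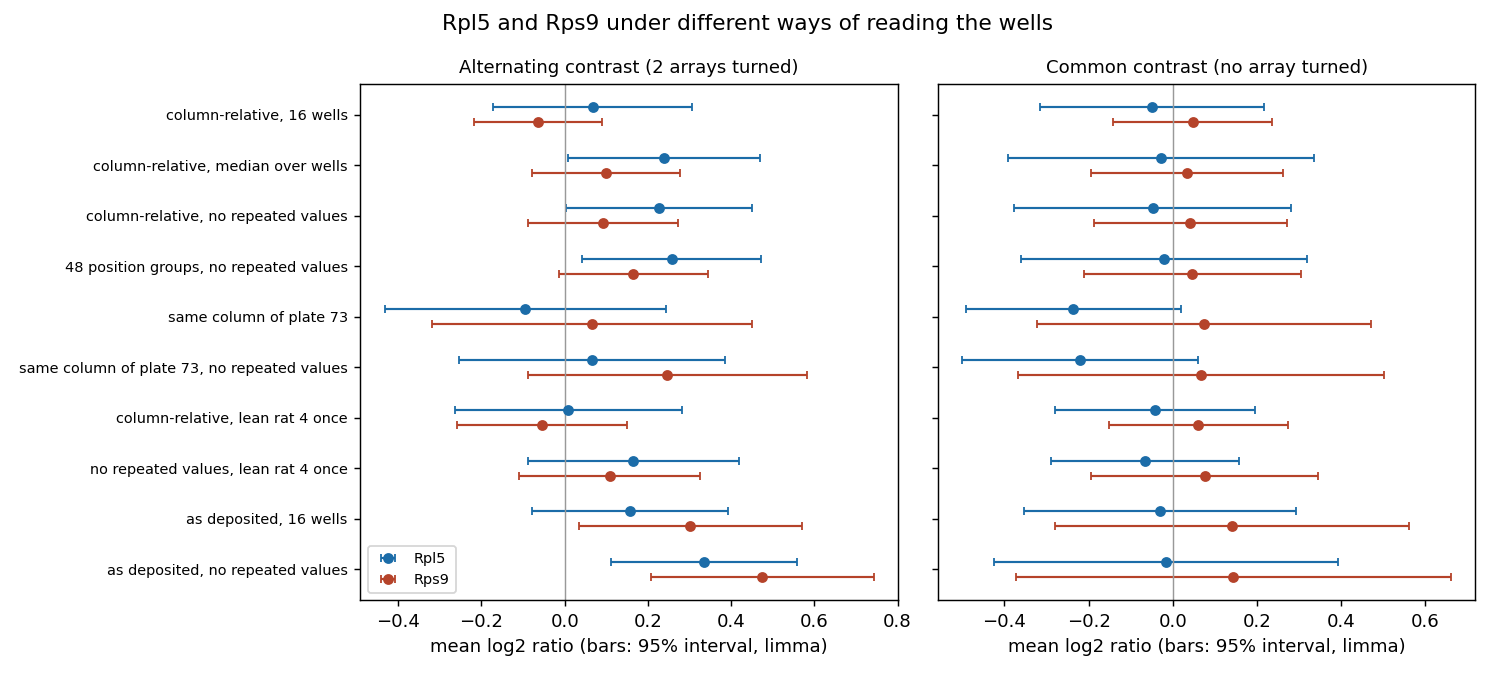
Mean log2 ratio (x axis) with its 95% interval from limma for Rpl5 (blue) and Rps9 (red) in the alternating contrast (left) and the common contrast (right), for 10 ways of reading the wells (y axis). Rpl5 is at 0.068 in the first line, at 0.24, 0.23 and 0.26 in the next 3, and between -0.094 and 0.34 over all 10. Rps9 moves from -0.064 to 0.48 between the first line and the last.

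Without the column medians both genes were higher in the alternating contrast. As deposited and without repeated values, Rps9 averaged 0.48 (SE 0.12, limma adjusted p = 0.0332), and Rpl5 averaged 0.34 (SE 0.099, limma adjusted p = 0.0573), both positive on 4 of 4 arrays. In that setting 7 of 13 Rps9 wells and 6 of 15 Rpl5 wells passed, all positive, where 12.9% of the 18100 probes tested did. Relative to their columns, 0 of the same 28 wells passed (limma), against 2.22% of probes. At an unadjusted p under 0.05 there were 5 of 15 Rpl5 wells and 2 of 13 Rps9 wells, against 25.5% of probes. As deposited with repeated values kept, 1 of 32 wells passed, against 2.01% of probes. It was well 73G11, which held repeated values on all 4 arrays, at -2.42 (SE 0.37, limma adjusted p = 0.0497), opposite in sign to the other Rps9 wells.

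The values also depended on which neighbours were used. The column medians come from 75 plates, whereas all member wells sat on 1 of them, beside 8 unnamed wells in each of the columns 9 to 12. In column 10 those 8 neighbours had a median log2 ratio of 0.93 on the array of obese rat 5, against 0.16 for the whole column. Set against the same column of the same plate, Rpl5 was at -0.094 (SE 0.13, limma adjusted p = 0.739) over 16 wells and 0.065 (SE 0.13, limma adjusted p = 0.811) without repeated values in the alternating contrast. Its turned values per array, without repeated values, were then -0.46, 0.19, 0.15 and 0.38 for obese rats 5, 3, 4 and 1. In the common contrast it was at -0.24 (SE 0.10, 95% interval -0.49 to 0.019, limma adjusted p = 1) over 16 wells. It was below 0 on every array there, at -0.56, -0.15, -0.10 and -0.14 with obese rats 5, 3, 4 and 1 (exact sign-flip p = 0.125). Without repeated values the common contrast of Rpl5 was -0.22, positive on 1 of 4 arrays (exact sign-flip p = 0.25). Rps9 averaged 0.066 (SE 0.15, limma adjusted p = 0.845) in the alternating contrast over 16 wells and 0.25 (SE 0.14, limma adjusted p = 0.370) without repeated values. Its turned values per array, without repeated values, were 0.67, -0.12, -0.047 and 0.48 for obese rats 5, 3, 4 and 1. Against these neighbours Rps9 thus lay far from its columns with obese rats 5 and 1. These medians rest on 8 wells of unknown genes, and how far they reflect the plate or those genes was not tested.

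A further comparison asked whether the large-subunit and the small-subunit gene moved together. The difference Rps9 minus Rpl5, taken within each array, averaged -0.13 in the alternating contrast (SE 0.13, n = 4, exact sign-flip p = 0.375) and 0.097 in the common contrast (SE 0.14, exact p = 0.625). Without repeated values the turned differences were 0.34, -0.30, -0.43 and -0.15 with obese rats 5, 3, 4 and 1. Rps9 was thus above Rpl5 with obese rat 5 and below it on the other 3 arrays after turning, and the spread between arrays (SD 0.34) was larger than the mean of -0.13. The sign of the mean difference depended on what the wells were set against. It was 0.14 as deposited, both with and without repeated values, and relative to the same column of plate 73 it was 0.16, or 0.18 without repeated values (exact p from 0.5 to 0.875 in these 4 settings).

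Among the 9 other named genes, likeness was measured as the root-mean-square difference of column-relative gene means over the 4 arrays as deposited in sign. Over all wells the nearest to Rpl5 were Hspa1a, an inducible heat-shock chaperone, at 0.14 and Rpn2, a subunit of the oligosaccharyltransferase, at 0.24. The same genes were nearest to Rps9, with Rpn2 at 0.096 and Hspa1a at 0.14, while the distance between Rps9 and Rpl5 was 0.26. Without repeated values the nearest to Rpl5 were Hspa1a at 0.26 and Rps9 at 0.32. Top1, which encodes DNA topoisomerase I, at 0.093 and Actb, which encodes beta-actin, at 0.13 were then nearest to Rps9. The order therefore changed with the treatment of repeated values, and 4 arrays are too few for a correlation.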

How the data were processed

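Total RNA of 1 obese and 1 lean rat was co-hybridised on each of the 4 arrays, in 2 colours. Per probe and array there is a single deposited ratio on a log10 scale. The deposited log10 values had a mean of 0 on each array, so they had been centred. Not given in the sources used here were the scanner, image software, background correction, normalization and numerator. Values were multiplied by log2 of 10. Probe names were read as plate, row and column (75 plates, 16 rows, 24 columns). Gene names came from the platform annotation, with 160 probes of 10 genes named. The values given first use all 16 wells of a gene, relative to column medians of unnamed probes.

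Probes with a value on all 4 arrays were tested with limma 3.58.1 in R 4.3.3 (lmFit and eBayes, Benjamini-Hochberg adjustment over all rows, threshold 0.05), after checks on simulated data. The array was the replicate. Each held another obese rat, but lean rat 4 was on 2, so the arrays are not fully independent. Both members are given in full. Of their wells the highest and lowest by turned mean may be named, and wells 73L12 and 73P12 are named because their values were seen. The 2 other named genes nearest to each by root-mean-square difference were named too. The members, lists and tests were chosen with earlier results of these data known. Alternatives covered well position, repeated values, array scale, the summary over wells, a dye term, lean rat 4 counted once and each array left out.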

Additional observations from a re-analysis of the deposited data

How the results depend on the processing

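Each deposited ratio already pairs 1 obese with 1 lean rat on the same array, so the tests of ratios against 0 are paired. No further pairing was applied, as the arrays form a single group. In no setting did Rpl5 pass the limma threshold in the alternating contrast, over 17 alternatives with adjusted p from 0.0573 to 0.970, and 15 of them kept its sign. It was -0.094 against the same column of the same plate. Rps9 was positive in 10 of 17 (adjusted p 0.0332 to 0.966). It was 0.30 as deposited, 0.48 as deposited without repeated values, the 1 setting that passed, 0.0059 with 48 position groups and 0.17 with these and no repeated values. It was 0.066 relative to the same plate and 0.25 with no repeated values as well, 0.092 without repeated values in wells and medians, 0.12 without them in wells only, 0.099 as the median over wells, and 0.11 without repeated values and with lean rat 4 counted once. In the alternating contrast the difference Rps9 minus Rpl5 became positive as deposited (0.14, also without repeated values) and relative to the same plate (0.16, or 0.18 without repeated values). The count of wells called was 1 as deposited and 13 as deposited without repeated values, and 0 in the other alternatives. The cause was not tested.

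With each array left out, the alternating contrast of Rpl5 was -0.015 to 0.14 (negative without obese rat 3) and that of Rps9 -0.10 to -0.046. Their difference was -0.24 to -0.037. The common contrast was -0.12 to 0.039 for Rpl5 (positive without obese rat 3), 0.022 to 0.092 for Rps9 and -0.0098 to 0.21 for the difference (negative without obese rat 3), with 0 wells called in each case. Neither gene passed in the common contrast in any of 17 alternatives (adjusted p 0.925 to 1 for Rpl5 and 0.943 to 1 for Rps9). The settings that combine repeated values with position groups, the same plate, no column medians or lean rat 4 were chosen after seeing the data. Of 22 measures over the 4 arrays, 0 had an array set apart by Dixon's criterion. Signal over background is unknown for every well.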
